A study of Mus musculus with 12 samples.

Results

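Calcium pumps and calcium release channels were followed in whole mammary tumors of C57BL/6 mice that carry the polyoma middle T oncogene (PyMT). According to the study's methods, the mice were female and the oncogene is driven by the mouse mammary tumor virus promoter, which acts mainly in mammary epithelium. RNA sequencing covered 12 tumors, 3 in each of 4 groups. The IgG1 group received the control antibody alone, and the anti-PD-1 group received antibody 4H2 against PD-1, an inhibitory receptor of T cells. In both of these groups treatment began at a tumor diameter of 0.6 cm with 20 mg/kg antibody, and later doses were 10 mg/kg. The DOX/IgG1 and DOX/anti-PD-1 groups received 5 mg/kg doxorubicin, an anthracycline that damages DNA, once a week and 10 mg/kg of the respective antibody a day later, from a diameter of 1 cm. Antibody alone was given on days 0, 6, 12 and 18 according to the protocol, while doxorubicin and its antibody were given weekly for 5 weeks. A label of each tumor gives weekly treatment for 5 weeks in all groups. Doxorubicin therefore cannot be told apart from the larger tumor at the start, the lower first antibody dose, or the number and spacing of antibody doses.

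The 10 genes are Atp2a2, Atp2a3, Atp2b1, Atp2b2, Atp2b4, Atp2c2, Itpr1, Itpr2, Itpr3 and Stim1, out of 21960 genes listed for each tumor. They were chosen by name as a group, but Atp2a3 was selected on its lower level under DOX/anti-PD-1 than under anti-PD-1, measured in these same tumors. All values from that comparison are given as a description, with no test. The comparison of DOX/IgG1 with IgG1 shares no tumor with it and was tested for every gene that reached the minimum level. The other comparisons share tumors with it, so Atp2a3 was only described in them.

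Cells keep calcium low in the cytosol and high in their stores. SERCA pumps (the Atp2a genes) load the endoplasmic reticulum, plasma membrane pumps (Atp2b) expel calcium from the cell, and secretory pathway pumps (Atp2c) fill the Golgi apparatus with calcium and manganese. Inositol trisphosphate (IP3) receptors release the stored calcium after a signal, and Stim1 senses an emptied store and opens the Orai channels that refill it. In the lactating mammary gland, the pumps encoded by Atp2b2 and Atp2c2 are known for moving calcium into milk.

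Levels are in TPM, a unit that is corrected for transcript length and so lets genes be compared. Read counts are not among the deposited values. How deeply each tumor was sequenced is therefore unknown, and a gene listed at 0 may still be transcribed. In bulk tumors, fewer cells of a type and less RNA per cell cannot be told apart. The tumors carried clear epithelial RNA: Epcam, the most abundant of 8 epithelial markers, was between 418 and 954 TPM in the 12 tumors. The tumor DOX/IgG1 replicate 1 was the least like the others. Its correlation with them over all genes was 0.927 to 0.944 (mean 0.937). The next lowest mean, 0.943, was that of DOX/anti-PD-1 replicate 3 (0.927 to 0.952), and pairs of tumors without DOX/IgG1 replicate 1 had correlations of 0.933 to 0.976. In DOX/IgG1 replicate 1, 8104 genes were listed at 0, against 6534 to 7730 in the others. Its column header also holds the word test, which the labels do not explain. Results that rest on this tumor are given with and without it. The headers of the DOX/anti-PD-1 tumors have a different ending from all others, also unexplained. Whatever this ending marks cannot be told apart from the treatment of that group.

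Across the 12 tumors the 10 genes covered a wide range of levels. The SERCA genes Atp2a3 and Atp2a2 had the highest means, 252 and 221 TPM. Neither was above the other throughout, since Atp2a3 exceeded Atp2a2 in 6 of 12 tumors. Itpr1 followed with a mean of 148 TPM, then Itpr2 with 76.1 TPM and Atp2b1 with 75.8 TPM, and these last genes did not differ beyond their spread. Itpr3 (42.4 TPM) and Stim1 (40.4 TPM) were likewise close to each other. The lowest means belonged to Atp2c2 (18.1 TPM), Atp2b4 (13.3 TPM) and Atp2b2 (0.598 TPM). All except Atp2b2 reached 1 TPM in 12 of 12 tumors, so 9 of the 10 genes entered the tests.

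**Figure D1:**
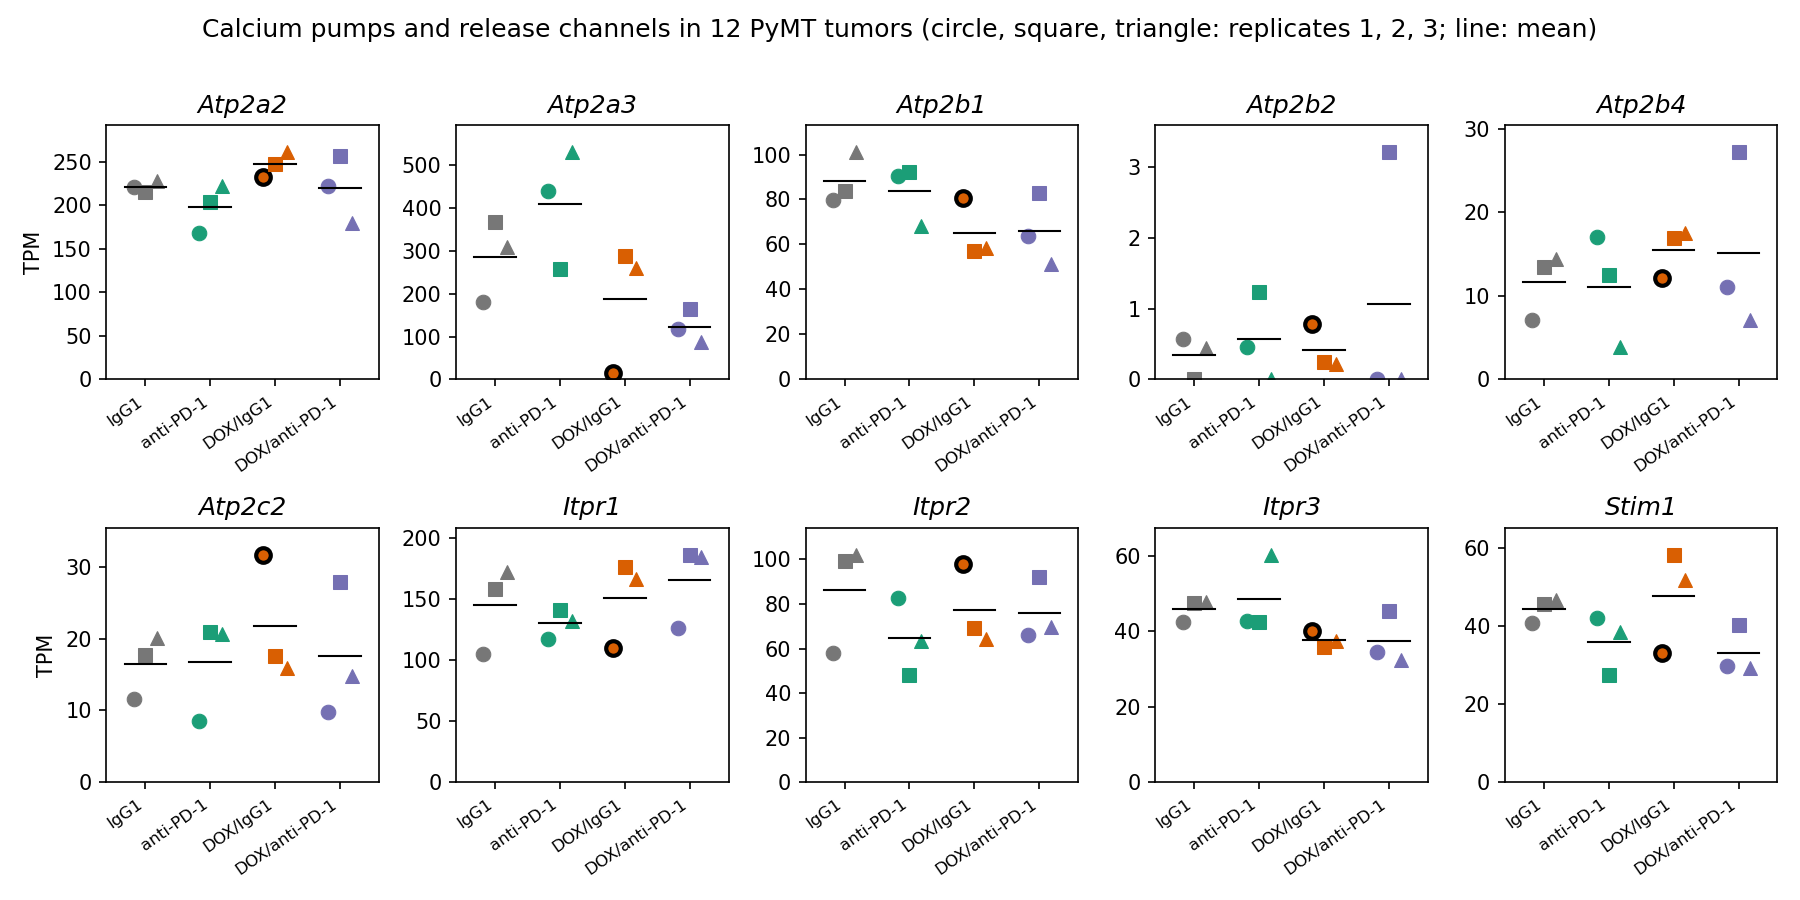
TPM of the 10 calcium genes in each tumor, by treatment group. Points are tumors (circle, square and triangle for replicates 1, 2 and 3; black edge for DOX/IgG1 replicate 1) and lines are group means, and Atp2a3 ranges from 15.2 to 530 TPM, while Atp2a2 stays between 168 and 261 TPM.

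Atp2a3 (ENSMUSG00000020788) encodes SERCA3, a SERCA pump with a lower affinity for calcium than SERCA2, found in some epithelia and in blood cells. It was the most variable of the 10 genes, with an SD of 1.36 on the log2 scale over the 12 tumors and a 34.9-fold span from the lowest to the highest tumor. The span was 6.13-fold when the lowest tumor, DOX/IgG1 replicate 1, was set aside, narrower than the 7.09-fold span of Atp2b4, so the rank of Atp2a3 by span rests on that tumor. The other genes had SDs between 0.19 and 0.67 on that scale. Without the same tumor the SD of Atp2a3 was 0.79, close to the 0.71 of Atp2b4. Atp2a3 lies on chromosome 11 from 72961169 to 72993044 on the plus strand (GRCm38), and GENCODE vM21 places no other gene within this span. Its promoter and that of Itpr3 are shown because Atp2a3 had the widest spread over all 12 tumors and because the Itpr3 levels of DOX/IgG1 and IgG1 tumors did not overlap. The RefSeq windows (GRCm38.p6) run from 250 bases before to 50 after the start, and capitals mark GGGCGG, the core of a GC box, on either strand.
Atp2a3, chr11:72960919-72961218, plus strand: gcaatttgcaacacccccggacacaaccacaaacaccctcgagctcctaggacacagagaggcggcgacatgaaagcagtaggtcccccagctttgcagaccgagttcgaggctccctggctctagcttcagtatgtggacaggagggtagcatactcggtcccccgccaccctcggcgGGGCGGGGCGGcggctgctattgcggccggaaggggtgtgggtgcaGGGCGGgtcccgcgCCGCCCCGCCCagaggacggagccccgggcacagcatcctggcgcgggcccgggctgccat
Itpr3, chr17:27057054-27057353, plus strand: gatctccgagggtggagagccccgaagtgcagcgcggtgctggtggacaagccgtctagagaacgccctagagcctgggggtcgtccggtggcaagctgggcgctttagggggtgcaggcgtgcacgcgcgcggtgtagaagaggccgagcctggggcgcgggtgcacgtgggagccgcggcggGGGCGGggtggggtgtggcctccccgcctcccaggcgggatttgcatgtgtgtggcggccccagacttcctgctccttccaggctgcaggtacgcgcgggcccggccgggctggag
The Atp2a3 window holds 5 matches, some of which overlap each other, and 68.3% of its bases are G or C. In the Itpr3 window there is 1 match and the share of G and C is 72.3%. At least 1 match is present in 35.6% of 32817 mouse promoter windows of 300 bases. A promoter was found for 7 of the 10 genes, 10 windows in all. None of these holds TATAAA (present in 13.6% of all windows) or TTCNNNGAA (8.3%, the spacing of many STAT elements), and CCAAT (37.4%) occurs only in that of Itpr2. These matches describe the letters in the window and are not evidence of binding.

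In the IgG1 tumors Atp2a3 was at 181, 368 and 310 TPM (replicates 1, 2 and 3), and in the anti-PD-1 tumors at 439, 258 and 530 TPM. The DOX/IgG1 tumors had 15.2, 289 and 259 TPM, and the DOX/anti-PD-1 tumors 118, 165 and 86.5 TPM. Each DOX/anti-PD-1 tumor was below every tumor given an antibody alone, while 2 of the 3 DOX/IgG1 tumors lay among the IgG1 tumors and the remaining one was far below. As a description of the contrast that selected it, Atp2a3 averaged 123 ± 39.4 TPM (SD, n = 3) under DOX/anti-PD-1 and 409 ± 138 TPM under anti-PD-1, and the log2 fold change was -1.71 (SE 0.33). Fold changes here are differences of mean log2(TPM + 1), which understate differences of genes at low levels. In DOX/IgG1 against IgG1 tumors, with 188 ± 150 and 286 ± 95.5 TPM, the log2 fold change was -1.37 (SE 0.96), and limma gave an adjusted p of 0.77. With DOX/IgG1 replicate 1 left out this value was -0.01 (SE 0.32), and with DOX/IgG1 replicate 2 left out it was -2.09, so the difference rested on that tumor. From DOX/IgG1 to DOX/anti-PD-1 the log2 fold change was 0.17 (SE 0.97), and without the same tumor it was -1.19 (SE 0.30), with the groups then apart, while leaving out DOX/IgG1 replicate 2 gave 0.89. The interaction, the doxorubicin difference with anti-PD-1 minus that with IgG1, was -0.34 (SE 1.14) with all tumors and -1.70 (SE 0.50) without that tumor, or 0.38 without DOX/IgG1 replicate 2, all as descriptions. Anti-PD-1 against IgG1 gave 0.51 (SE 0.34), with overlapping groups, from 0.21 without IgG1 replicate 1 to 0.81 without anti-PD-1 replicate 2.

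The 5 genes whose log2(TPM + 1) followed Atp2a3 most closely over the 12 tumors were Limch1, Pla2g4a, Dkkl1, Coro2a and Pon3, out of 14734 genes compared. Limch1, an actin-associated protein, had r = 0.96 (rho 0.94), and 0.86 when DOX/IgG1 replicate 1 and DOX/anti-PD-1 replicate 3 were left out as the tumors farthest from the Atp2a3 median. Pla2g4a, the cytosolic phospholipase A2 that calcium brings to membranes, had r = 0.93 (rho 0.78), and 0.70 without those tumors. Dkkl1 had r = 0.93 (rho 0.76, 0.67 without them). Coro2a, an actin-binding coronin, had r = 0.92 (rho 0.92, 0.85 without them), and Pon3, a lactonase, had r = 0.92 (rho 0.85, 0.74 without them). All 5 had their lowest level in DOX/IgG1 replicate 1, such as 9.88 TPM for Limch1 and 370 TPM for Coro2a, where the next lowest tumors had 17.2 and 616 TPM.

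Atp2a2 (ENSMUSG00000029467) encodes SERCA2, the SERCA pump of most cell types. It was the least variable of the 10 genes, at 221, 215 and 228 TPM in IgG1, 168, 204 and 222 TPM in anti-PD-1, 233, 247 and 261 TPM in DOX/IgG1 and 222, 257 and 180 TPM with DOX/anti-PD-1. All 3 DOX/IgG1 tumors were above all 3 IgG1 tumors, by a small margin. The log2 fold change was 0.16 (SE 0.20, adjusted p 0.865), and under median-of-ratios scaling it was 0.05 and the groups overlapped.

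Atp2a1 encodes SERCA1, the pump of fast skeletal muscle. It spanned 1.77 to 108 TPM, and its level moved with that of skeletal muscle RNA. The 3 tumors with the most Atp2a1, DOX/anti-PD-1 replicate 1 (108 TPM), IgG1 replicate 3 (57.6 TPM) and anti-PD-1 replicate 1 (48.9 TPM), were also those with the highest summed TPM of 10 skeletal muscle markers, 1016, 586 and 633. Each of these markers reached 1 TPM in at least 3 tumors, none was absent from every tumor, and Acta1 was the most abundant. The log2 fold change of Atp2a1 in DOX/IgG1 against IgG1 was -0.45 (SE 0.84, adjusted p 0.916), from -1.08 without IgG1 replicate 2 to 0.48 without IgG1 replicate 3. Over the other 9 tumors the muscle sum was between 13.5 and 212 TPM. Their part in the Atp2a1 values was not tested.

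Because a ratio within a tumor does not depend on how tumors are scaled, the share of SERCA3 in the summed TPM of the 3 SERCA genes was taken. It was 44.0, 62.5 and 52.1% in IgG1 tumors and 67.0, 55.7 and 70.3% in anti-PD-1 tumors. With doxorubicin it was 6.03, 51.9 and 48.4% in DOX/IgG1 and 26.4, 38.8 and 28.9% in DOX/anti-PD-1 tumors. SERCA3 thus made up most of the SERCA RNA in 2 IgG1 tumors, all anti-PD-1 tumors and 1 DOX/IgG1 tumor. SERCA2 exceeded SERCA3 in every DOX/anti-PD-1 tumor. This is a description only, since Atp2a3 was selected on its lower level there than under anti-PD-1. The means were 35.4 ± 25.5% in DOX/IgG1 and 52.8 ± 9.26% in IgG1 tumors (SD), a difference of -17.4 points. The two-sided exact permutation test gave p = 0.4, with 0.1 as the smallest p that 3 tumors against 3 allow. With DOX/IgG1 replicate 1 left out the difference was -2.71 points (exact p = 0.7). In DOX/anti-PD-1 replicate 1, 24.0% of SERCA RNA came from Atp2a1, which by arithmetic leaves less for the other shares.

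**Figure D2:**
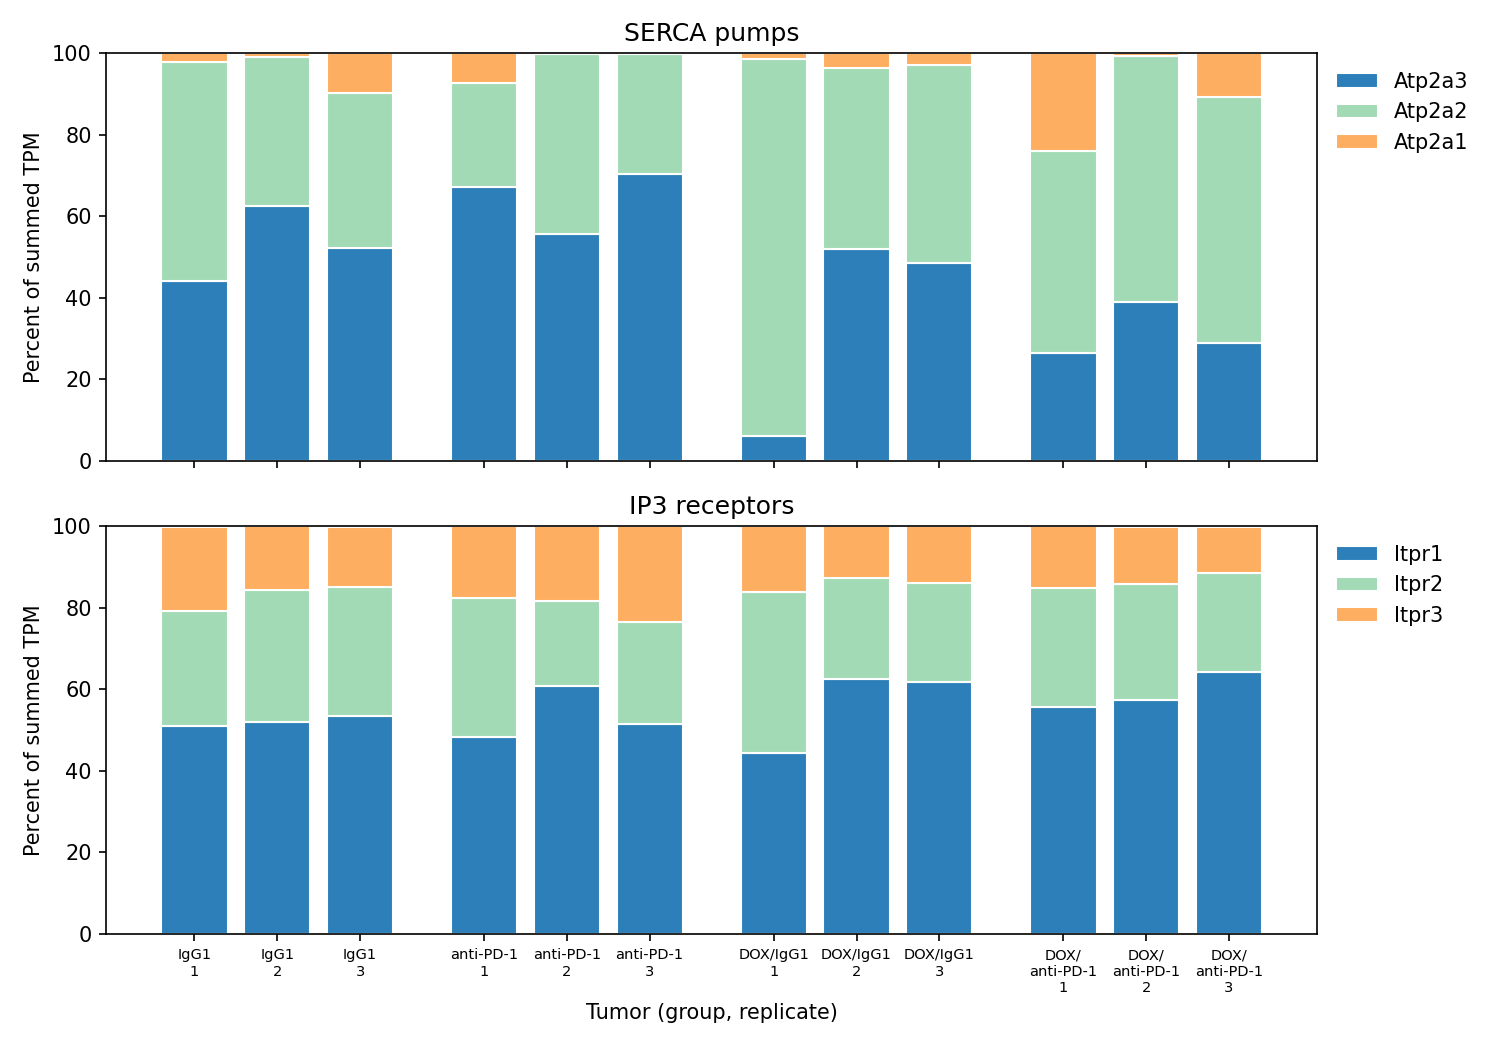
Composition of SERCA pump RNA (top) and IP3 receptor RNA (bottom) in each tumor, as the percent of the summed TPM of the 3 genes of each family. SERCA3 (Atp2a3) holds 6.03% in DOX/IgG1 replicate 1 and 26.4 to 38.8% in DOX/anti-PD-1 tumors, part of the contrast that selected Atp2a3. Itpr1 is the largest IP3 receptor part in every tumor, from 44.4 to 64.3%.

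Platelets and blood cells are known sources of SERCA3. Of 6 platelet and megakaryocyte markers, Itga2b was the most abundant, from 2.90 to 23.2 TPM, with its highest level in anti-PD-1 replicate 3 and values of 3.11, 3.28 and 2.90 TPM in DOX/IgG1 replicate 1 and in DOX/anti-PD-1 replicates 1 and 3. These tumors also held the 3 lowest Atp2a3 levels. The list as a whole had another order, since its summed TPM of the list was 14.6, 9.90 and 15.7 in IgG1, 18.6, 12.6 and 34.4 in anti-PD-1, 18.0, 24.9 and 28.8 in DOX/IgG1 and 22.4, 28.6 and 6.75 with DOX/anti-PD-1. Gp9 was listed at 0 in all tumors except DOX/anti-PD-1 replicate 3, and Gp6 never passed 0.210 TPM. Summed over 13 leukocyte markers, of which Ptprc was the most abundant and Ms4a1 stayed below 1 TPM throughout, RNA was 127 TPM in DOX/IgG1 replicate 1 and between 133 and 304 TPM in the others. What these cells contribute to the Atp2a3 values was not tested.

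The plasma membrane pump Atp2b1 (ENSMUSG00000019943), the widespread form, was at 79.9, 83.8 and 101 TPM in IgG1, 90.3, 92.2 and 68.3 TPM in anti-PD-1, 80.5, 56.9 and 58.5 TPM in DOX/IgG1 and 63.6, 82.9 and 51.2 TPM with DOX/anti-PD-1. Of the DOX/IgG1 tumors, replicates 2 and 3 were below all IgG1 tumors and replicate 1 was level with them. The means were 65.3 ± 13.2 and 88.4 ± 11.5 TPM, with a log2 fold change of -0.44 (SE 0.24, adjusted p 0.708). Without DOX/IgG1 replicate 1 it was -0.60 (SE 0.24), and under median-of-ratios scaling -0.55; the groups were then apart in both cases, and the gene was still not called. With anti-PD-1 the doxorubicin difference was -0.35 (SE 0.25) as a description, with overlapping groups, from -0.53 to -0.19 without DOX/anti-PD-1 replicate 2 or 3.

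Atp2b4, another plasma membrane pump, ranged from 3.84 TPM in anti-PD-1 replicate 3 to 27.2 TPM in replicate 2 of the DOX/anti-PD-1 group, with a median of 13.0 TPM. Both groups spread widely, at 17.0, 12.5 and 3.84 TPM in anti-PD-1 and 11.1, 27.2 and 7.10 TPM with DOX/anti-PD-1, and no groups were apart with all tumors included. Its log2 fold change in DOX/IgG1 against IgG1 was 0.42 (SE 0.37, adjusted p 0.807). It was 0.58 (SE 0.39) without DOX/IgG1 replicate 1, with the DOX/IgG1 tumors then above all IgG1 tumors and no call, and 0.12 without IgG1 replicate 1.

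Of the milk pumps, Atp2b2 was low and Atp2c2 was at a middling level. Atp2b2 (ENSMUSG00000030302), the plasma membrane pump of milk-secreting cells and of hair cells of the inner ear, was listed at 0 in 4 of 12 tumors and reached 1 TPM in 2 of them. The values were 0.570, 0 and 0.450 TPM in IgG1, 0.460, 1.24 and 0 TPM in anti-PD-1, 0.780, 0.240 and 0.220 TPM in DOX/IgG1 and 0, 3.21 and 0 TPM with DOX/anti-PD-1. No group was apart from another, and below the minimum no test was made. Its closest genes were Ext1 (r 0.92, rho 0.92), Slc35d3 (0.88, 0.81), Them5 (0.87, 0.72), Slc4a7 (0.87, 0.91) and Nr1h4 (0.85, 0.56). When replicate 2 of the DOX/anti-PD-1 group and replicate 2 of the anti-PD-1 group were left out, r was 0.85, 0.68, 0.52, 0.87 and 0.46 in the same order. All 5 had their highest levels, 65.6, 38.0, 99.7, 17.1 and 30.2 TPM in that order, in the tumor with the most Atp2b2, DOX/anti-PD-1 replicate 2.

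Atp2c2 (ENSMUSG00000034112), the secretory pathway pump of glandular epithelium, was at 11.6, 17.7 and 20.1 TPM in IgG1, 8.57, 20.9 and 20.7 TPM in anti-PD-1, 31.7, 17.6 and 15.9 TPM in DOX/IgG1 and 9.81, 28.0 and 14.8 TPM with DOX/anti-PD-1. The highest value belonged to DOX/IgG1 replicate 1, the tumor with the least Atp2a3. The log2 fold change in DOX/IgG1 against IgG1 was 0.35 (SE 0.37, adjusted p 0.837), 0.05 (SE 0.35) without that tumor and 0.53 without DOX/IgG1 replicate 3. Its closest genes were Aqr (r 0.91, rho 0.92), Tab2 (0.89, 0.88), Pot1a (0.88, 0.69), Cstf2 (0.88, 0.95) and Zfp236 (0.88, 0.90). Without DOX/IgG1 replicate 1 and anti-PD-1 replicate 1, r was 0.95, 0.80, 0.85, 0.87 and 0.77. Atp2c1, the form found in most cells, was far more abundant, from 143 to 339 TPM, with a log2 fold change of 0.39 (SE 0.29, adjusted p 0.776), or 0.15 without IgG1 replicate 1, and Atp2b3 was listed above 0 in IgG1 replicate 3 alone (0.460 TPM).

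Milk genes themselves were lower in the DOX/IgG1 tumors, where Atp2c2 was not. The summed TPM of 10 milk secretion genes was 7595, 4918 and 8675 in IgG1, 6597, 10466 and 7543 in anti-PD-1, 1152, 3341 and 2631 in DOX/IgG1 and 6154, 8540 and 3099 in DOX/anti-PD-1 tumors. Csn3, the kappa casein, made up most of it, with 6987, 4472 and 7858 TPM in IgG1 and 812, 3071 and 2403 TPM in DOX/IgG1 tumors. All 10 genes reached the minimum and none was called; 9 of 10 were lower in DOX/IgG1, with a median log2 fold change of -1.73 against 0.12 for all genes tested. The log2 fold change of Csn3 was -1.78 (SE 0.51, adjusted p 0.479). The relation of the milk genes to the pumps was not tested.

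Of the IP3 receptors, Itpr1 was the most abundant. Itpr1 (ENSMUSG00000030102) was at 105, 158 and 172 TPM in IgG1, 117, 141 and 132 TPM in anti-PD-1, 110, 176 and 166 TPM in DOX/IgG1 and 126, 186 and 184 TPM with DOX/anti-PD-1. In each group replicate 1 was the lowest, and the groups overlapped. The log2 fold change in DOX/IgG1 against IgG1 was 0.06 (SE 0.28, adjusted p 0.973), with the opposite sign (-0.05) under median-of-ratios scaling. Leaving out DOX/IgG1 replicate 1 gave 0.27 (SE 0.28), and leaving out IgG1 replicate 1 gave -0.16.

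Itpr2, the receptor most sensitive to IP3, ranged from 48.2 TPM in anti-PD-1 replicate 2 to 102 TPM in IgG1 replicate 3 (median 69.4 TPM). Its largest tested difference was anti-PD-1 against IgG1, -0.40 (SE 0.30, adjusted p 0.996), with overlapping groups, from -0.66 without IgG1 replicate 1 to -0.20 without anti-PD-1 replicate 2. In DOX/IgG1 against IgG1 it was -0.14 (SE 0.30, adjusted p 0.93), -0.32 when DOX/IgG1 replicate 1 was left out, -0.40 without IgG1 replicate 1 and 0.00 without IgG1 replicate 3.

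Itpr3 (ENSMUSG00000042644), the receptor typical of secretory epithelia, was at 42.5, 47.6 and 47.7 TPM in IgG1, 42.8, 42.4 and 60.2 TPM in anti-PD-1, 40.0, 35.8 and 37.5 TPM in DOX/IgG1 and 34.4, 45.3 and 32.3 TPM with DOX/anti-PD-1. Every DOX/IgG1 tumor lay below every IgG1 tumor, as it did under median-of-ratios scaling and without DOX/IgG1 replicate 1. The means were 37.8 ± 2.10 and 45.9 ± 3.01 TPM, but with a log2 fold change of -0.28 (SE 0.23) the adjusted p was 0.79. The description in DOX/anti-PD-1 against anti-PD-1 was -0.36 (SE 0.25), with DOX/anti-PD-1 replicate 2 among the anti-PD-1 tumors; under median-of-ratios scaling the value was -0.48 and the groups were apart. Without anti-PD-1 replicate 3 it was -0.20. Lower Itpr3 with doxorubicin was thus the same in sign with either antibody, and it was not called.

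As shares of their summed TPM, Itpr1 held 51.0, 51.9 and 53.4% in IgG1 and 44.4, 62.6 and 61.9% in DOX/IgG1 tumors. DOX/IgG1 replicate 1 differed from its group in having the highest Itpr2 share of all tumors, 39.5%, against 20.8 to 34.2% elsewhere. The difference between DOX/IgG1 and IgG1 was 4.17 points for Itpr1 (two-sided exact permutation p = 0.4), -1.40 for Itpr2 (exact p = 0.8) and -2.77 for Itpr3 (exact p = 0.3). Without DOX/IgG1 replicate 1 these were 10.1, -6.44 and -3.69 points, with exact p of 0.1, 0.2 and 0.2, where 0.1 is the smallest possible. Without DOX/IgG1 replicate 2 or 3 the Itpr2 difference was 0.981 or 1.26 points, and the Itpr1 difference was 1.01 or 1.37 points. For Itpr3 it was -0.934 without IgG1 replicate 1.

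Stim1 (ENSMUSG00000030987), the calcium sensor of the endoplasmic reticulum, was at 40.8, 45.7 and 46.7 TPM in IgG1, 42.1, 27.6 and 38.5 TPM in anti-PD-1, 33.2, 58.3 and 51.8 TPM in DOX/IgG1 and 29.7, 40.4 and 29.4 TPM with DOX/anti-PD-1. The highest levels were those of DOX/IgG1 replicates 2 and 3, and replicate 1 of that group was well below them. For DOX/anti-PD-1 against DOX/IgG1 the log2 fold change was -0.49 (SE 0.29, adjusted p 0.988). It was -0.33 without DOX/IgG1 replicate 2 and -0.73 (SE 0.28) without DOX/IgG1 replicate 1, with the groups then apart, an unadjusted p below 0.05 and no call. In DOX/IgG1 against IgG1 it was 0.07 (SE 0.27, adjusted p 0.966), 0.30 (SE 0.25) without that tumor, and of opposite sign (-0.04) under median-of-ratios scaling. Without that tumor the DOX/IgG1 tumors were above all IgG1 tumors, and without DOX/IgG1 replicate 2 the value was -0.09.

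**Figure D3:**
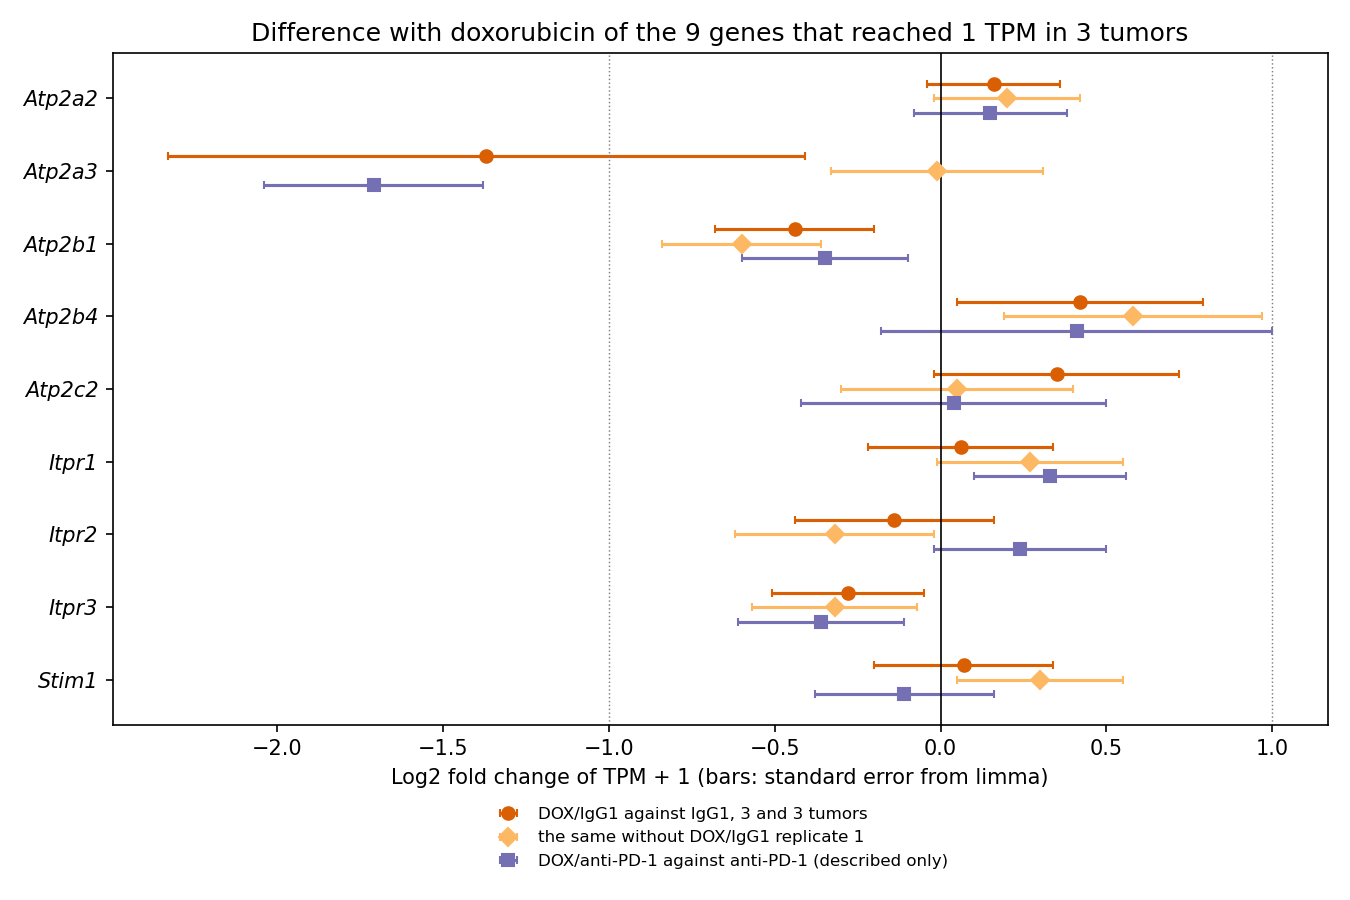
Log2 fold changes with doxorubicin of the 9 calcium genes that reached 1 TPM in at least 3 tumors, with standard errors: circles compare DOX/IgG1 with IgG1, diamonds do so without DOX/IgG1 replicate 1, and squares set DOX/anti-PD-1 against anti-PD-1, the contrast that selected Atp2a3. The Atp2a3 value goes from -1.37 to -0.01 when that tumor is left out, while the Itpr3 value goes from -0.28 to -0.32.

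Counted over the group, 0 of the 9 tested genes were called by limma (adjusted p under 0.1, with a log2 fold change beyond 1 in either direction) in DOX/IgG1 against IgG1, and 0 had an unadjusted p below 0.05. Of all 13874 genes tested there, 5 (0.0360%) were called: the salivary genes Smr3a and Bpifa2 were higher, and the acute phase genes Saa1 and Saa2 and the histone gene Hist1h2af were lower. An unadjusted p below 0.05 was reached by 1073 genes. When DOX/IgG1 replicate 1 was left out, the count was 122 genes, and still 0 of the 9, although Atp2b1 then had an unadjusted p below 0.05. Leaving out DOX/IgG1 replicate 2 gave 2 genes, and leaving out DOX/IgG1 replicate 3 or any IgG1 tumor gave 0. Such fits hold fewer tumors, so a lost call alone does not show that a difference rested on a single tumor. For Bpifa2 the log2 fold change was 4.73, and between 4.21 and 5.13 whichever tumor was removed. For Smr3a it was 3.87, and between 3.73 and 4.06. Groups were apart for 2 of the 9 (Atp2a2 higher, Itpr3 lower), against 14.0% of all genes tested.

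In DOX/anti-PD-1 against anti-PD-1, described only, 1 of the 9 genes had groups apart, the selected Atp2a3, beside 14.9% of 13736 genes. No gene was called by limma in that comparison (0%), and 1185 genes had an unadjusted p below 0.05. In anti-PD-1 against IgG1, 0 of the 8 tested genes (all except Atp2a3) were called, beside 0 of 13692 genes in all (0%, 630 with an unadjusted p below 0.05), and 0 of 9 had groups apart, beside 9.88%. For DOX/anti-PD-1 against DOX/IgG1 the counts were again 0 of 8 called, beside 0 of 13946 (0%, 655 with an unadjusted p below 0.05), and 0 of 9 apart, beside 10.2%. The interaction called 0 of 8, and 1 of 14735 genes (0.00679%, Bpifa2), with 694 below an unadjusted p of 0.05. None of the 8 genes tested in these comparisons had an unadjusted p below 0.05, and Atp2a3 was not tested in them. The median log2 fold change of all genes was 0.12 for DOX/IgG1 against IgG1 and 0.11 for DOX/anti-PD-1 against anti-PD-1, and median-of-ratios scaling took these to 0.02 and 0.00. The small positive values of Atp2a2, Itpr1 and Stim1 with IgG1 were thus close to that of the typical gene.

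The wider calcium pathway was read from 12 lists with 150 genes found in the data, of which 129 reached the minimum in DOX/IgG1 against IgG1. None was called, 12 (9.30%) had an unadjusted p below 0.05 against 7.73% of all genes, and 24 (18.6%) had groups apart against 14.0%. Without DOX/IgG1 replicate 1, 1 was called, beside 122 (0.879%) of all genes: Trpc6, a receptor-operated channel with 4.12, 32.2 and 86.3 TPM in DOX/IgG1 and 7.76, 8.65 and 10.4 TPM in IgG1 tumors. In DOX/anti-PD-1 against anti-PD-1, described only, 17 of 126 list genes at the minimum (13.5%) had groups apart, beside 14.9% of all genes.

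Among 7 store-operated entry partners, 6 reached the minimum, 4 were higher and 2 lower in DOX/IgG1 than in IgG1 tumors, and 4 had groups apart, beside 14.0% of all genes. Their median was 0.33, against 0.12 for all genes (0.29 without DOX/IgG1 replicate 1, 0.22 without IgG1 replicate 2). In DOX/anti-PD-1 against anti-PD-1, 2 were higher and 4 lower, with a median of -0.05 against 0.11 for all genes. Groups were apart for 1 there, beside 14.9% of all genes. Orai2, a pore subunit, was at 5.26, 5.51 and 5.31 TPM in IgG1 and 19.6, 9.02 and 9.38 TPM in DOX/IgG1 tumors (log2 fold change 1.02, SE 0.40, adjusted p 0.599, and 0.68 without DOX/IgG1 replicate 1). With anti-PD-1 the Orai2 groups overlapped, at 5.42, 5.67 and 10.3 TPM against 7.14, 8.19 and 4.57 TPM with added doxorubicin. Orai3, another pore subunit, was at 23.9, 23.8 and 29.6 TPM in IgG1 and 31.3, 33.6 and 40.6 TPM in DOX/IgG1 tumors (0.43, SE 0.26, adjusted p 0.738), and at 21.2, 31.3 and 28.4 TPM in anti-PD-1 and 33.6, 39.0 and 42.2 TPM with DOX/anti-PD-1. Orai3 was thus higher in each doxorubicin group than in every tumor of its antibody control. Stim2, the sensor of small changes in store calcium, was lower, at 104, 91.5 and 78.1 TPM in DOX/IgG1 against 129, 133 and 117 TPM in IgG1 tumors (-0.47, SE 0.22, adjusted p 0.658), unlike Stim1. Septin 7 (listed as Sept7) was higher (0.54, SE 0.30, adjusted p 0.71, and 0.22 without IgG1 replicate 1), Orai1 (9.88 to 19.3 TPM) and the store-entry inhibitor Saraf (64.2 to 118 TPM) overlapped, and Tmem178 was above 0 in DOX/IgG1 replicate 2 alone.

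Calcium buffers and chaperones of the secretory pathway were the list with the lowest median, -0.45 against 0.12 for all genes (-0.62 without DOX/IgG1 replicate 1). Of 16 genes, 15 reached the minimum, 12 were lower in DOX/IgG1 than in IgG1 tumors, while 60.6% of all genes were higher. Groups were apart for 5, all lower, beside 14.0% of all genes. Nucb2, a calcium-binding Golgi protein, was at 167, 289 and 275 TPM in IgG1 and 69.2, 111 and 102 TPM in DOX/IgG1 tumors (-1.35, SE 0.29, adjusted p 0.453). Calr, the main calcium buffer of the endoplasmic reticulum, was at 3543, 2676 and 3151 TPM in IgG1 and 1805, 1722 and 1657 TPM in DOX/IgG1 tumors (-0.85, SE 0.27, adjusted p 0.518). The other genes with groups apart were the chaperones Hspa5 (-0.84, SE 0.28, adjusted p 0.547), Canx (-0.78, SE 0.28, adjusted p 0.568) and Pdia3 (-0.54, SE 0.24, adjusted p 0.649), named after their values were seen. Casq1 (0.21) and Sdf4 (0.18) were the highest of the list, but they were at -0.55 and -0.03 without IgG1 replicate 1 and at 0.74 and 0.33 without IgG1 replicate 3. In DOX/anti-PD-1 against anti-PD-1, 10 of 15 were lower, with a median of -0.32, but the median was 0.04 without DOX/anti-PD-1 replicate 3. Groups were apart for 5 there, 2 higher and 3 lower, beside 14.9% of all genes. None of these genes was called. In the DOX/IgG1 tumors the milk genes (median -1.73) and Epcam (-0.87) were also lower than in IgG1 tumors. The 8 epithelial markers that include Epcam were mixed, with 3 higher, 5 lower and a median of -0.19.

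**Figure D4:**
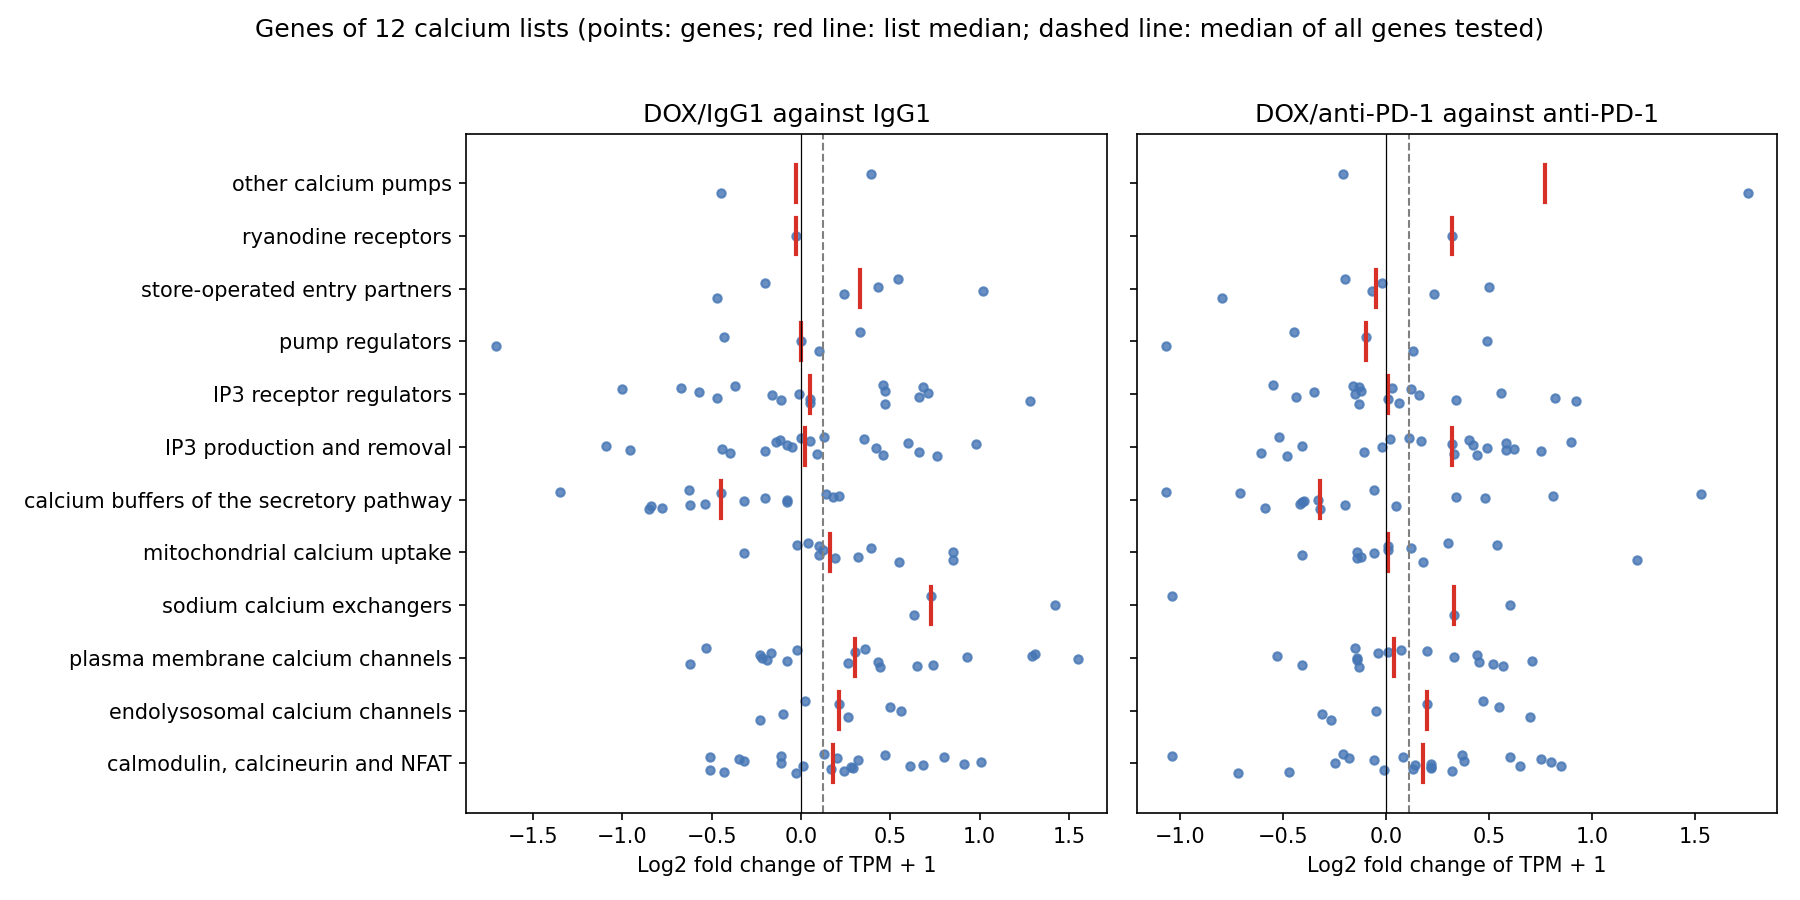
Log2 fold changes with doxorubicin of genes at the minimum level in 12 calcium lists, with IgG1 (left) and with anti-PD-1 (right). Points are genes, red lines are list medians and the dashed line is the median of all genes tested. The buffers of the secretory pathway have the lowest median of the left panel, -0.45.

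The enzymes that make and remove IP3 (20 genes, all at the minimum) were 10 higher and 10 lower in DOX/IgG1, with a median of 0.02 (0.20 without DOX/IgG1 replicate 1, -0.09 without DOX/IgG1 replicate 3, and of opposite sign, -0.08, under median-of-ratios scaling). Plcb1, a phospholipase C driven by G protein receptors, was at 43.7, 52.7 and 53.1 TPM in DOX/IgG1, above the IgG1 tumors at 26.9, 36.1 and 25.1 TPM (0.76, SE 0.26, adjusted p 0.547). It was at 13.4, 19.7 and 26.7 TPM with DOX/anti-PD-1, all of which were below the DOX/IgG1 tumors. Itpka (0.98) was the highest of the list and Plch1 (-1.09) and Plcd4 (-0.96, and -0.47 without DOX/IgG1 replicate 1) the lowest. Regulators of the IP3 receptors (17 of 18 genes at the minimum) were 9 higher and 8 lower, with a median of 0.05 (-0.08 without DOX/IgG1 replicate 2, 0.16 without IgG1 replicate 2, and of opposite sign, -0.06, under median-of-ratios scaling). The lowest were Homer2 (-1.0, SE 0.72, adjusted p 0.776) and Homer3 (-0.67), and the highest Bok (0.71, from 0.10 without IgG1 replicate 1 to 1.27 without IgG1 replicate 2) and Mrvi1 (1.28, from 0.70 without DOX/IgG1 replicate 3 to 2.19 without DOX/IgG1 replicate 1). Homer2, a scaffold that ties receptors to IP3 receptors, was at 6.00 TPM in DOX/IgG1 replicate 1 and between 31.5 and 78.0 TPM in the other 11 tumors, and without the former its log2 fold change was -0.04 (-1.53 without DOX/IgG1 replicate 3).

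Regulators of the calcium pumps (5 of 7 genes at the minimum) had a median of 0.00 (0.03 without DOX/IgG1 replicate 1, -0.24 without IgG1 replicate 1). Phospholamban (Pln) was at 2.24 to 8.95 TPM, and myoregulin (Mrln), an inhibitor of the muscle pump, had the lowest value, -1.71 (SE 0.80, adjusted p 0.663), or -0.91 without DOX/IgG1 replicate 1, where it was listed at 0. Bsg (-0.43, and -0.90 without that tumor) was next, and Tmem64 (0.33) and Pln (0.10) were the highest. Without DOX/IgG1 replicate 1, Tmem64 was at 0.03 and Pln at 0.39, and Pln was at -0.26 without IgG1 replicate 1. Without DOX/IgG1 replicate 2, Bsg was at -0.14 and Tmem64 at 0.57. Sarcolipin (Sln) was listed above 0 in DOX/anti-PD-1 replicate 1 alone, at 1.44 TPM, the tumor with the most muscle RNA. Of the ryanodine receptors, the release channels of excitable cells, Ryr1 reached at most 7.52 TPM, in that same tumor (-0.03, SE 0.72, adjusted p 0.997, from -0.61 without IgG1 replicate 2 to 0.66 without IgG1 replicate 3), and Ryr2 at most 1.43 TPM. Ryr3 was at 0.600, 5.81 and 2.51 TPM with DOX/anti-PD-1 and at most 0.0900 TPM in anti-PD-1 tumors, too low to be tested in DOX/IgG1 against IgG1. IP3 receptors were therefore the main release channel RNA in these tumors.

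Mitochondrial uptake genes (12, all at the minimum) were 10 higher and 2 lower, with a median of 0.16 (0.25 without DOX/IgG1 replicate 1, 0.35 without IgG1 replicate 3), close to that of all genes. They ran from Smdt1 (-0.32, and -0.07 without IgG1 replicate 1) and Letm1 (-0.02, from -0.18 without DOX/IgG1 replicate 3 to 0.19 without DOX/IgG1 replicate 1) to Mcub (listed as Ccdc109b, 0.85, and 1.30 without the latter tumor) and Mcur1 (0.85, SE 0.34, adjusted p 0.599), a regulator of the uniporter at 13.7, 20.7 and 18.0 TPM in DOX/IgG1 against 7.18, 11.4 and 9.18 TPM in IgG1 tumors. Sodium calcium exchangers reached the minimum for 3 of 8 genes, all higher, with Slc24a3 at 1.42 (SE 0.59, adjusted p 0.626), Slc24a5 at 0.73 (-0.15 without IgG1 replicate 1, 1.30 without IgG1 replicate 2) and Slc8a1 at 0.63 (0.41 without IgG1 replicate 1). Their median of 0.73 was 0.41 without IgG1 replicate 1 and 1.30 without IgG1 replicate 2. Plasma membrane channels (19 of 26 genes at the minimum) were 11 higher and 8 lower, with a median of 0.30, which was 0.11 without DOX/IgG1 replicate 1 and -0.10 without IgG1 replicate 1. Their highest were Cacnb4 (1.55, SE 0.60, adjusted p 0.597) and Trpc6 (1.31, and 2.45 without DOX/IgG1 replicate 1), which were at 1.01 and 0.40 without DOX/IgG1 replicate 3. Their lowest were Cacna1g (-0.62, from -1.09 without IgG1 replicate 2 to -0.18 without IgG1 replicate 3) and Piezo1 (-0.53, and -0.25 without DOX/IgG1 replicate 3). Endolysosomal channels (7 of 8 at the minimum) had a median of 0.21, or -0.14 without DOX/IgG1 replicate 1, between Mcoln1 (-0.23), Tpcn1 (-0.10), Pkd1 (0.50) and Tpcn2 (0.56). With that tumor left out these were -0.14, -0.29, 0.71 and 0.32. Mcoln1 was at -0.40 without IgG1 replicate 2 and 0.04 without IgG1 replicate 3, Tpcn1 at 0.07 without DOX/IgG1 replicate 2, Pkd1 at 0.33 without IgG1 replicate 1 and Tpcn2 at 0.88 without DOX/IgG1 replicate 3.

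Downstream of calcium, 22 genes of calmodulin, calcineurin and NFAT signaling all reached the minimum, 14 higher and 8 lower, with a median of 0.18 (0.26 without DOX/IgG1 replicate 1, 0.07 without DOX/IgG1 replicate 3). Groups were apart for 6 of the 22, of which 5 were higher, beside 14.0% of all genes tested. The highest were Rcan2 (1.01) and Nfatc4 (0.91), both below 5 TPM, and the lowest Ppp3ca, a catalytic subunit of calcineurin, and Camk4, both at -0.51. Ppp3ca was at 29.6 TPM in DOX/IgG1 replicate 1 and between 78.9 and 123 TPM in the others, and its value without that tumor was 0.13, and -0.84 without DOX/IgG1 replicate 2. For Camk4, listed at 0 in the former, it was -0.15, and -0.77 without DOX/IgG1 replicate 3.

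Marker genes of other tissues and cell types also differed between tumors. The 8 epithelial markers summed to 2137 TPM in DOX/IgG1 replicate 1, the lowest of all, and to between 2350 and 4211 TPM in the others, and Epcam was at 565, 522 and 418 TPM in DOX/IgG1 against 938, 846 and 954 TPM in IgG1 tumors (-0.87, SE 0.23, adjusted p 0.469). The list as a whole was mixed, with 3 higher, 5 lower and a median of -0.19, and Krt19 was at 302, 1261 and 1801 TPM in DOX/IgG1 against 847, 347 and 601 TPM in IgG1 tumors. The basal markers, led by Krt14, summed to 141 TPM in DOX/IgG1 replicate 1 and 38.4 to 132 TPM elsewhere. Of 10 salivary genes, 7 reached the minimum, 5 higher and 2 lower in DOX/IgG1 than in IgG1 tumors. Bpifa2 was listed at 0 outside the DOX/IgG1 group and had 14.4, 21.3 and 53.7 TPM within it. Aqp5, the most abundant of that list, was at 252, 251 and 280 TPM in DOX/IgG1 against 444, 381 and 411 TPM in IgG1 tumors, and Smgc (for Muc19) was at 0 in every tumor. The fibroblast markers, led by Col1a1, summed to 522 TPM in DOX/IgG1 replicate 1 and 676 to 1807 TPM elsewhere. Those of smooth muscle and pericytes, led by Acta2, summed to 129 TPM in the same tumor and 168 to 892 TPM elsewhere. Thus the tumor with the lowest Atp2a3 was also lowest in epithelial, milk, leukocyte, fibroblast, smooth muscle, and neuron and Schwann cell markers. Adipocyte markers, led by Cfd, summed to 101 to 901 TPM, endothelial markers, led by Pecam1, to 75.7 to 161 TPM, and neuron and Schwann cell markers, led by Sox10, to 52.6 to 104 TPM. Their part in the levels of the calcium genes was not tested.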

How the data were processed

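For 12 PyMT tumors the authors deposited log2(TPM + 1) with decimal commas, 21960 genes each (skewer, STAR on mm10, RSEM; versions not stated). The log was reversed; summed TPM was 609418 to 725506, and depth is unknown. Groups follow the labels. limma 3.58.1 (R 4.3.3; lmFit, eBayes with trend) was run on log2(TPM + 1) for genes at 1 TPM in at least 3 tumors fitted, two-sided, with Benjamini-Hochberg adjustment over all genes; called means adjusted p below 0.1 and absolute log2 fold change above 1. Shares were compared by exact permutation over tumors (numpy 2.4.6). The limma fits were tested on simulated data, and the other steps were not. The members and lists were chosen with earlier results of these data known. Named are the 10 genes, 3 lists in full, the 2 highest and 2 lowest genes of every further list, the 5 genes closest to Atp2a3, Atp2b2 and Atp2c2, and each marker list's most abundant gene; others were named after their values were seen. Older symbols were matched; Erln and Itprip were not found. Coordinates are from GENCODE vM21. Alternatives covered pseudocount, minimum, joint fit, scaling, trend, replicate block and each tumor left out.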

Additional observations from a re-analysis of the deposited data

How the results depend on the processing

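None of the 10 calcium genes was called in any test under any setting tried. Tested were 9 in DOX/IgG1 against IgG1, and 8 (without Atp2a3) in anti-PD-1 against IgG1, DOX/anti-PD-1 against DOX/IgG1 and the interaction. Atp2b2 was too low to test, and in DOX/anti-PD-1 against anti-PD-1 none was tested. The count of all genes called moved: in DOX/IgG1 against IgG1 from 5 to 13 without the variance trend and to 2 with the replicate number as a block; in DOX/anti-PD-1 against anti-PD-1 from 0 to 3, and in anti-PD-1 against IgG1 from 0 to 1, without the trend; for DOX/anti-PD-1 against DOX/IgG1 from 0 to 2 with all 12 tumors in a joint fit, 3 with median-of-ratios scaling and 3 without the trend; in the interaction from 1 to 0 with a pseudocount of 0.1, a minimum of 5 TPM, scaling or the block, and to 3 with no minimum or no trend. The cause was not tested. Over 14735 genes, deviations from group means correlated at -0.1 to 0.13 between tumors of the same replicate number (above 0.1 in 4 of 18 pairs) and at -0.19 to 0.11 between other tumors. Of 12 tumors, 8 were closest to a tumor of their own number. This is a hint of likeness from the data; the labels give no pairing, and not every pair was above 0.1, so the block is an alternative only.

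With each tumor left out in turn, these counts ran from 0 to 122, 0 to 4, 0 to 4, 0 to 4 and 0 to 1 in the same order. The 122 came without DOX/IgG1 replicate 1, and 113 with the minimum applied again, an alternative chosen after seeing the data. Of 9 calcium genes, those with groups apart numbered 2 to 5, 1 to 3, 0 to 3 and 0 to 5, beside 21.5 to 32.6%, 21.9 to 28.8%, 16.9 to 24.7% and 17.2 to 24.7% of all genes, and 2 in DOX/anti-PD-1 against anti-PD-1 with scaling. Fewer tumors in a group make such gaps more frequent.

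Some log2 fold changes changed sign, not only those near 0. With scaling, Itpr1 (-0.05) and Stim1 (-0.04) did so in DOX/IgG1 against IgG1 and Itpr2 (0.01) for DOX/anti-PD-1 against DOX/IgG1; with a pseudocount of 0.1, Atp2b4 did in the interaction (0.00). Leaving out tumors gave, in DOX/IgG1 against IgG1, -0.16 to 0.27 for Itpr1, -0.40 to 0.00 for Itpr2 and -0.09 to 0.30 for Stim1. In anti-PD-1 against IgG1 the ranges were -0.16 to 0.05 for Atp2b1, -0.59 to 0.35 for Atp2b4, -0.26 to 0.35 for Atp2c2, -0.35 to 0.01 for Itpr1 and -0.11 to 0.14 for Itpr3. For DOX/anti-PD-1 against DOX/IgG1 they were -0.17 to 0.17 for Atp2b1, -0.72 to 0.18 for Atp2b4, -0.07 to 0.32 for Itpr1, -0.16 to 0.16 for Itpr2 and -0.17 to 0.06 for Itpr3. In the interaction they were -0.13 to 0.12 for Atp2a2, -0.09 to 0.25 for Atp2b1, -0.57 to 0.39 for Atp2b4, -0.70 to 0.02 for Atp2c2 and -0.23 to 0.08 for Itpr3. The Itpr2 share difference ran from -6.44 to 1.26 points. In DOX/anti-PD-1 against anti-PD-1, described only, Atp2b4 (0.41) and Atp2c2 (0.04) were among those that turned negative without DOX/anti-PD-1 replicate 2.

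List medians moved beyond the spread between tumors as follows. With scaling, store-operated entry partners went to 0.23 in DOX/IgG1 against IgG1 and plasma membrane channels to -0.07 in DOX/anti-PD-1 against anti-PD-1. With tumors left out, DOX/IgG1 against IgG1 gave 0.22 to 0.46 for store-operated entry partners, 0.41 to 1.30 for sodium calcium exchangers, -0.10 to 0.42 for plasma membrane channels and -0.14 to 0.41 for endolysosomal channels. DOX/anti-PD-1 against anti-PD-1 gave -0.16 to 0.18 for store-operated entry partners, -0.09 to 0.22 for mitochondrial uptake, -0.03 to 0.18 for plasma membrane channels and 0.06 to 0.23 for calmodulin, calcineurin and NFAT. Anti-PD-1 against IgG1 gave 0.02 to 0.20 for store-operated entry partners, -0.08 to 0.43 for pump regulators, 0.00 to 0.22 for mitochondrial uptake, -0.25 to 0.35 for sodium calcium exchangers and -0.31 to -0.03 for plasma membrane channels. DOX/anti-PD-1 against DOX/IgG1 gave -0.25 to 0.04 for IP3 receptor regulators, -0.46 to -0.11 for plasma membrane channels, -0.22 to 0.07 for endolysosomal channels and -0.28 to -0.04 for calmodulin, calcineurin and NFAT. The cause was not tested. Depth is unknown, so the precision of low values such as those of Atp2b2 cannot be given.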
